A study of Homo sapiens with 8 samples.

Results

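The regions described here are stretches of chromatin that were called as bound by mTOR in LNCaP cells with FoxA1 knocked down and given vehicle, and in none of the other 3 conditions of the study. They were chosen by their presence in the peak lists: peaks of the 4 deposited lists on chromosomes 1 to 22, X and Y that overlapped by at least 1 bp were merged into 61118 union regions, and the regions with a peak in the shFoxA1 EtOH list alone were kept. This gave 8994 regions, 14.7% of all union regions and 25.6% of the 35121 shFoxA1 EtOH peaks, each holding exactly 1 peak. The other lists held 39570 peaks (shFoxA1 R1881), 24948 peaks (shEV EtOH) and 26074 peaks (shEV R1881), and the regions found in those lists alone numbered 12017, 3994 and 4418.

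mTOR is the serine/threonine kinase that couples nutrient and growth factor supply to protein synthesis, ribosome production and metabolism, and a pool of it in the nucleus can be cross-linked to chromatin. FoxA1 is a pioneer transcription factor of the forkhead family, which opens chromatin for other factors in the prostate epithelium. Promoters are the stretches around gene start sites, and CpG islands are the GC-rich stretches that many promoters lie in. LINE and SINE elements, LTR retroviruses and satellites are the repeated sequences that make up much of the human genome.

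LNCaP is an established, androgen-responsive human prostate cancer line. All cells carried a vector, with or without a hairpin, and were kept in 2% charcoal-stripped serum, which holds little androgen, for 48 h before treatment. The 4 groups were shFoxA1 (a hairpin against FoxA1) with vehicle (ethanol, EtOH, 0.1%), shFoxA1 with 10 nM of the synthetic androgen R1881, shEV (the empty vector) with EtOH, and shEV with R1881, treated for 24 h each. With 1 mTOR immunoprecipitation library in each group, differences have no replicate check and carry no p-value; 95% intervals (Wilson for a share, Newcombe for a difference of shares) cover counting error only. The files hold no measure of FoxA1 level, no read totals and no occupancy in the lists where a peak was not called, so depth is unknown, and absence from a list is not absence of mTOR. The input libraries were not analysed here.

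Among the regions with the highest scores in the promoter class were those at PTPN4, a protein tyrosine phosphatase, HAUS8, a subunit of the augmin complex that nucleates microtubules in the spindle, CCDC14, a protein of the centriolar satellites, and KAT7, a histone acetyltransferase. Separately from that ranking, regions lay at RPS16, a protein of the small ribosomal subunit, and at RICTOR and RPTOR, the scaffold proteins that define mTOR complex 2 and mTOR complex 1. The RICTOR region was annotated to an intron and a CpG island, not to the promoter class. The RPTOR promoter region scored 42, the median of the shFoxA1 EtOH-only regions. The 250 bases before the start site of these 7 genes are shown because they are sequence that carried an mTOR peak in this list alone; they are RefSeq reference sequence (GRCh38.p14), read in the direction of transcription. Capitals mark matches, on either strand, to any of 9 motif strings: forkhead (TGTTTAC or TGTTTGC), the androgen response core (AGAACA), the ETS string (CCGGAAG), NRF1, the SP string (GGGCGG), the cyclic AMP response element (TGACGTCA), the E-box (CACGTG), AP-1 (TGANTCA) and the CCAAT box (CCAAT).
PTPN4, chr2:119759672-119759921, plus strand: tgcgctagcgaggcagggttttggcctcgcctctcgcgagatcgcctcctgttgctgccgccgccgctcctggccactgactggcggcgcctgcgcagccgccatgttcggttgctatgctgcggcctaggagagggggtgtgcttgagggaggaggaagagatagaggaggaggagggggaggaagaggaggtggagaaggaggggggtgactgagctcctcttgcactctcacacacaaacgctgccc
HAUS8, chr19:17075453-17075702, minus strand: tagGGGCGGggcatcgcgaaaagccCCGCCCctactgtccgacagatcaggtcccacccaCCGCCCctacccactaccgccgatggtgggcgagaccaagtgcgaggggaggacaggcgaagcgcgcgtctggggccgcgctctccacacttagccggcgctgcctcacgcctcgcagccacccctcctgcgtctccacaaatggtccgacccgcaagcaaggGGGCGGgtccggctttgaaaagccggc
CCDC14, chr3:123961230-123961479, minus strand: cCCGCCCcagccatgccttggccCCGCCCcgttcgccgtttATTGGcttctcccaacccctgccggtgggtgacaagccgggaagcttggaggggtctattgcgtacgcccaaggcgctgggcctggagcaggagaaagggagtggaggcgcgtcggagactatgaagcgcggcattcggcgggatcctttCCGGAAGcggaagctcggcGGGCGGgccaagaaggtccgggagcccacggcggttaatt
KAT7, chr17:49788431-49788680, plus strand: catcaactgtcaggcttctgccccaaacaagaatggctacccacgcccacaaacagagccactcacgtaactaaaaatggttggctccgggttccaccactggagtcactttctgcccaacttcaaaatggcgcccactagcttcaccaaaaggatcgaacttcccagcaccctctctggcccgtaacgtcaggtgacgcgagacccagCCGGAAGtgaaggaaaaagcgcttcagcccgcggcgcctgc
RPS16, chr19:39435950-39436199, minus strand: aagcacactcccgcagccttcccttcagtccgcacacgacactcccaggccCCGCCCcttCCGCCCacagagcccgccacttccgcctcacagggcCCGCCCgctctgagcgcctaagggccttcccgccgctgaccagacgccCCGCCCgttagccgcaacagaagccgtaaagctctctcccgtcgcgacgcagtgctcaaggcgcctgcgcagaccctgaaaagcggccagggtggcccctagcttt
RICTOR, chr5:39074400-39074649, minus strand: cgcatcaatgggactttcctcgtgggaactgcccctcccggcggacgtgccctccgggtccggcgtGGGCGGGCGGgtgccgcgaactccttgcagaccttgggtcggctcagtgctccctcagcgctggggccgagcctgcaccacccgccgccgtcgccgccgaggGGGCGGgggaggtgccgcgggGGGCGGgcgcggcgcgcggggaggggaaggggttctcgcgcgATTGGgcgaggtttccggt
RPTOR, chr17:80544588-80544837, plus strand: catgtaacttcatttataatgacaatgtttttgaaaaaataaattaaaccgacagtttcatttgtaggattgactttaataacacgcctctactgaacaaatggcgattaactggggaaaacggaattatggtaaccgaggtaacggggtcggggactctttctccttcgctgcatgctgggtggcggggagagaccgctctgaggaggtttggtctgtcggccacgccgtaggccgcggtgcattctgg
Matches to the SP string can overlap each other, and in these stretches no match overlapped one of another string. The PTPN4 and RPTOR stretches held no match to any of the strings. HAUS8 and RPS16 each held 4 matches to the SP string, the binding letters of the zinc finger factors SP1 and its relatives. RICTOR held 4 matches to the SP string and a CCAAT box, counted on the reverse strand, 19 bases before the start. CCDC14 held 3 SP matches, a CCAAT box and an ETS string 59 bases before its start, and KAT7 held an ETS string 41 bases before its start. The GC content of the 7 stretches lay between 47.2% (RPTOR) and 76.0% (RICTOR).

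Of the 15842 coding genes with a RefSeq promoter window of 300 bases (250 before and 50 after the start), 724 (4.57%) overlapped a shFoxA1 EtOH-only region. The SP string was in 76.0% of these windows (72.7 to 78.9), against 58.5% of all coding windows (57.7 to 59.3). The ETS string was in 22.8% of them (19.9 to 26.0), against 14.2% of all (13.7 to 14.8). The E-box, bound by MYC and USF factors, was in 11.9% (9.72 to 14.4), against 8.88% of all. NRF1 letters were in 3.04%, against 1.75% of all, the cyclic AMP response element was in 3.31%, against 2.59%, and the CCAAT box was in 34.5%, against 36.4%. Forkhead strings, the letters read by FoxA1 and its relatives, were in 4.01% of the windows (2.80 to 5.69), against 5.69% of all (5.34 to 6.06). The androgen response core was in 7.18%, against 11.2%, and AP-1 was in 3.04%, against 5.75%. The windows with such a region were also richer in GC, with a median of 67.7% (quartiles 62.0 and 73.3), against 62.7% for all windows, and the part of GC content in the motif shares was not tested.

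Other windows with mTOR regions had the following shares. Windows with a shFoxA1 R1881-only region held the SP string in 69.3% of 629 windows, the ETS string in 22.7% and a forkhead string in 4.13%; their median GC content was 65%. Windows with a region found in all 4 lists held the strings in 74.9%, 19.5% and 3.26% of 1259 windows, with a median GC content of 67.0%. Windows with a shEV EtOH-only region held them in 83.2%, 14.7% and 6.32% of 95 windows, with a median GC content of 69.0%. In the same order of the sets, the androgen response core was in 7.15%, 6.43% and 2.11% of windows. AP-1 was in 4.61%, 3.65% and 2.11%, and the E-box in 9.38%, 12.2% and 11.6%. The androgen core and AP-1 were thus below the share of all coding windows in these sets too. A match is a description of letters in the window and does not show a bound factor.

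The strength of the regions within their own list is given first, since it follows in part from the rule. The authors' score, a whole number per peak made in a way that these sources do not state, had a median of 42 over the shFoxA1 EtOH-only regions (quartiles 27 and 49, range 15 to 322). The 26127 other peaks of that list had a median of 84 (quartiles 49 and 144). Of the peaks scored 15 to 34, 55% were shFoxA1 EtOH-only; of those scored 84 to 134 it was 8.03%, and of those scored 144 or more it was 0.741% (52 of 7013). The regions were also narrower, with a median width of 380 bp, against 520 bp for the other peaks of the list. Of the 8994 regions, 1457 scored at or above the list's median of 66, so most were low-ranking peaks of their list.

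The rule turns on 1 bp of overlap. Just inside it lay a region in an intron near RAB39A (score 27), which touched a peak of another list without sharing a base, and regions near LOC728715 (score 42) and RHOT1 (score 49), each with a gap of 1 bp. Just outside it lay peaks near BAGE (score 21) and LINC00691 (score 34), each sharing 1 bp with another list. In all, 102 peaks of the shFoxA1 EtOH list fell outside the rule while sharing under 50 bp. The median distance from a shFoxA1 EtOH-only region to the nearest peak of any other list was 12410 bp. It was below 1 kb for 1269 regions (14.1%) and below 100 bp for 151 (1.68%). The nearest peak of the shFoxA1 R1881 list was a median 16972 bp away, while those of the shEV EtOH and shEV R1881 lists were 28990 and 29773 bp away; these lists are shorter.

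By the deposited annotation, 3818 of the 8994 regions were intergenic, 3686 were in introns, 1002 in promoters, 170 in coding exons, 97 in 5′ UTRs, 111 at transcription ends and 44 in 3′ UTRs. The promoter share was 11.1% (10.5 to 11.8). It exceeded that of the shFoxA1 R1881-only regions, which was 8.04%, by 3.10 percentage points (2.30 to 3.92). It exceeded that of the shEV EtOH-only regions, 4.16%, by 6.98 points (6.07 to 7.87), and that of the shEV R1881-only regions, 3.37%, by 7.77 points (6.91 to 8.60). Peaks found in both shFoxA1 lists and in no shEV list had a larger promoter share than the shFoxA1 EtOH-only regions, at 19.8% of 4244 peaks. Against all shared peaks of the same list (13.1%) the difference was -1.96 points (-2.72 to -1.18), and its sign was not stable: it was 0.239 when peaks sharing under 50% of their width were also counted as shFoxA1 EtOH-only, and 3.20 when only peaks at or above the median score of their list were kept in all lists.

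High GC content went with the same order of sets. Of the shFoxA1 EtOH-only regions, 1840 (20.5%) had a GC content above 60%, against 13.2% of the shFoxA1 R1881-only regions, a difference of 7.25 points (6.22 to 8.29). The shEV EtOH-only regions had 8.14% and the shEV R1881-only regions 5.02%. The shared peaks of the shFoxA1 EtOH list had 20.2%, a difference of 0.264 points (-0.692 to 1.24). Peaks found in both shFoxA1 lists and in no shEV list had more, 31.7%. Low GC content was also more common than in the shFoxA1 R1881-only regions. Of the shFoxA1 EtOH-only regions 30.9% were below 40% GC, against 26.1%. CpG islands in the detailed annotation held 468 regions (5.20%), against 3.05% of the shFoxA1 R1881-only regions and 1.98% of the shEV EtOH-only regions. They held 4.39% of the shared peaks and 7.02% of the peaks found in both shFoxA1 lists and in no shEV list. Within the shFoxA1 EtOH-only regions the promoter share was 12% at scores of 27 or below, 11.6% from 28 to 42, 11.0% from 43 to 60, and 8.65% (126 regions) from 61 upwards. The plot of annotation classes shows the sets side by side.

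**Figure D1:**
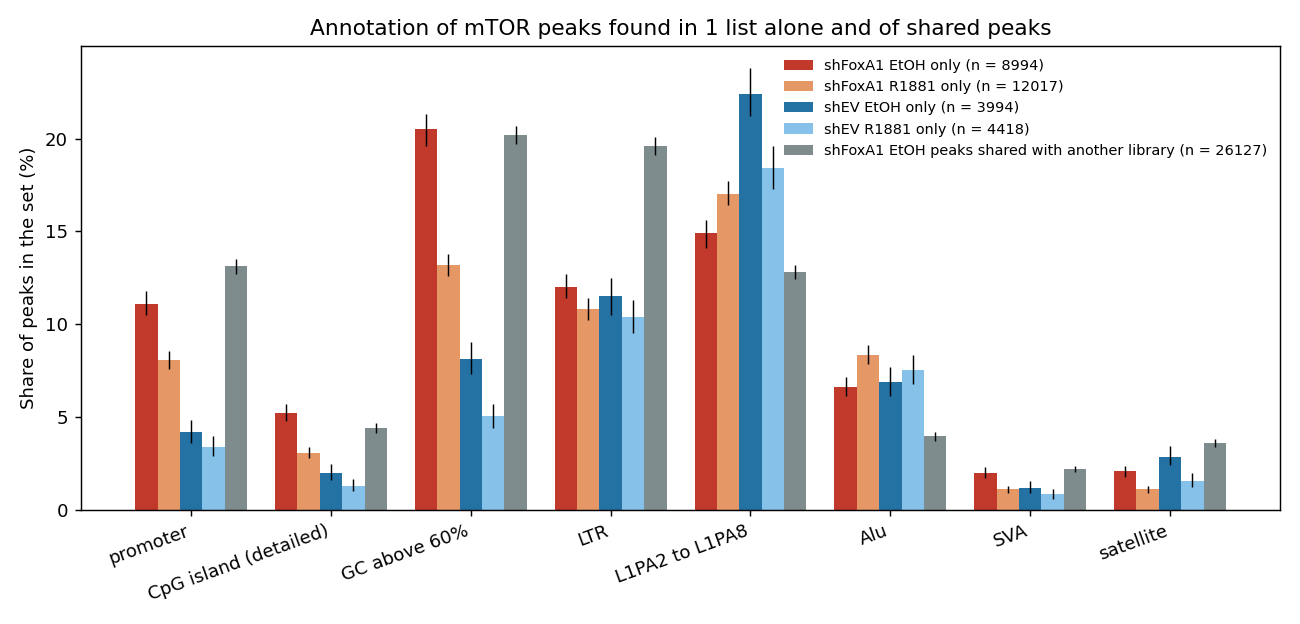
Share of peaks (vertical axis, %) in each annotation class for regions found in shFoxA1 EtOH alone, shFoxA1 R1881 alone, shEV EtOH alone and shEV R1881 alone, and for the shFoxA1 EtOH peaks shared with another library; error bars are Wilson 95% intervals. Promoters held 11.1% of the shFoxA1 EtOH-only regions, against 8.04%, 4.16% and 3.37% in the other 3 sets of regions found in 1 list, while LTR elements held 12% of them and 19.6% of the shared peaks.

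A partial comparison of vehicle with androgen, within shFoxA1 and within shEV, can be read from the regions found in 1 list. Of the 21011 regions in shFoxA1 EtOH alone or shFoxA1 R1881 alone, 42.8% (42.1 to 43.5) were EtOH-only. With shEV, 47.5% (46.4 to 48.5) of 8412 were EtOH-only. Each set is defined by absence from all other lists, those of the other pair included, so the 2 pairs are not independent. Regions present in both EtOH lists or in both R1881 lists are left out of both pairs. With both vectors the EtOH share was lowest from 45 to 50% GC. In shFoxA1 it was 56.3% (53.9 to 58.7) for regions under 35% GC, 36.2% from 40 to 45%, 35.2% (33.5 to 36.8) from 45 to 50%, and 56.8% (54.7 to 58.8) at 65% GC and above. In shEV the share was 43.3% (40.3 to 46.3) from 45 to 50% GC and also had its highest value at 65% GC and above, 61.6% (56.4 to 66.6), but under 35% GC it was 45.4% (42.7 to 48.1), below its overall value. By class, the EtOH share in shFoxA1 was 50.9% for promoters and 56.0% for CpG islands; in shEV it was 52.7% and 58.5%. Promoters and CpG islands are themselves GC-rich, and the part of GC content in their shares was not tested.

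**Figure D2:**
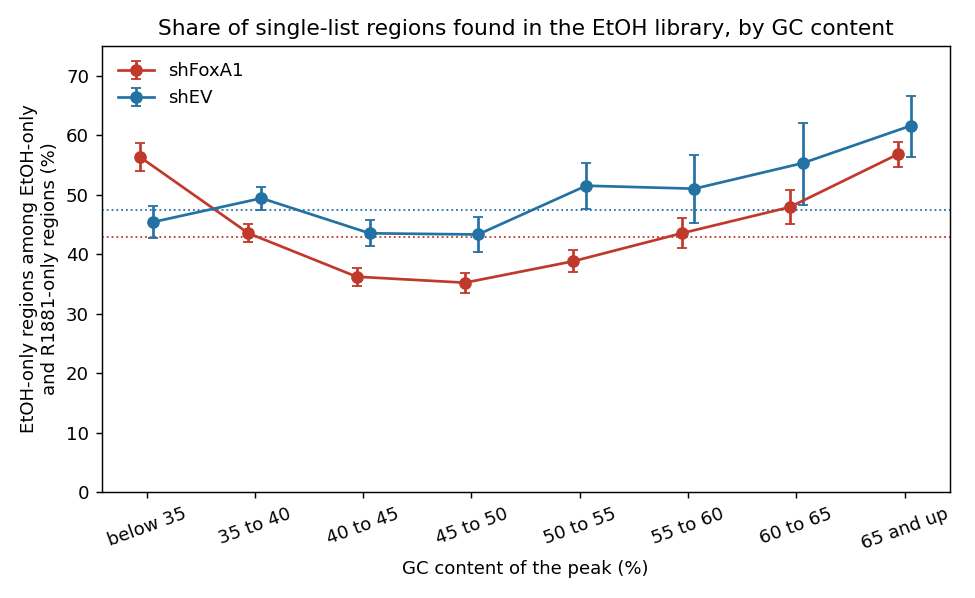
EtOH-only regions as a share of EtOH-only plus R1881-only regions (vertical axis, %) by GC content of the peak (horizontal axis, %), for shFoxA1 and shEV; points are shares, bars Wilson 95% intervals and dotted lines the overall shares of 42.8% and 47.5%. In shFoxA1 the share was 56.3% in the lowest GC bin, 35.2% from 45 to 50% GC and 56.8% in the highest bin.

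Repeated sequences made up 5318 of the regions (59.1%, 58.1 to 60.1). The share was 57.7% in the shFoxA1 R1881-only regions, a difference of 1.44 points (0.0960 to 2.79) whose interval held 0 when peaks sharing under 50% of their width were counted too (0.487, -0.762 to 1.74) or when the 10000 highest scores of each list were kept (2.04, -1.36 to 5.44). It was 73.0% in the shEV EtOH-only regions and 64.7% in the shared peaks of the same list. L1 elements, the LINE family that is still active in humans, held 2799 regions (31.1%). The younger primate subfamilies L1PA2 to L1PA8 held 1337 (14.9%), led by L1PA3 (273), L1PA5 (267), L1PA4 (262) and L1PA7 (217). LTR elements, the remains of endogenous retroviruses, held 1083 regions (12%), against 19.6% of the shared peaks and 25.9% of the peaks found in all 4 lists. The other sets found in 1 list had LTR shares of 10.8% (shFoxA1 R1881, a difference of 1.26 points, 0.389 to 2.13), 11.5% (shEV EtOH) and 10.4% (shEV R1881). Alu elements, short elements copied by the L1 machinery, held 596 (6.63%), against 8.35% of the shFoxA1 R1881-only regions. SVA elements, composite elements found in great apes, held 177 (1.97%), against 1.08% of the shFoxA1 R1881-only regions, 1.18% of the shEV EtOH-only regions and 2.17% of the shared peaks of the list. Satellites held 184 (2.05%), against 1.08% of the shFoxA1 R1881-only regions. The satellite share was larger in the shEV EtOH-only regions (2.85%), the shared peaks (3.56%) and the peaks of all 4 lists (5.17%), so the direction depends on the set compared. Of the satellite regions, 165 were alpha satellite, the repeat of human centromeres. Reads from repeats can map to several copies, so the position of such a region is uncertain.

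Some subfamilies stood far from the overall EtOH share; all 45 subfamilies with at least 60 regions in the shFoxA1 pair were compared, and those named here were chosen after their values were seen. MER52A, an LTR of the ERV1 class, had the highest share: 49 regions were found in shFoxA1 EtOH alone and 13 in shFoxA1 R1881 alone, an EtOH share of 79.0% (67.4 to 87.3). In shEV, 19 MER52A regions were found in EtOH alone and 1 in R1881 alone, 95% (76.4 to 99.1). Over the whole lists MER52A held 186 peaks with shFoxA1 EtOH and 135 with shFoxA1 R1881, and 147 with shEV EtOH and 91 with shEV R1881. A further 16 MER52A regions were present in both EtOH lists and in no R1881 list, against 1 in both R1881 lists and no EtOH list. With either vector, then, MER52A was called at more places in the vehicle library. The MER52A regions had a median GC content of 54.5%.

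The strongest MER52A region (score 123) lay on chromosome 14 at 41253013 to 41253495, 298543 bp from the start of LINC02315, in intergenic sequence. L1PB1, an older primate L1, had 70 regions in shFoxA1 EtOH alone and 31 in shFoxA1 R1881 alone (69.3%), and 58 in shEV EtOH alone and 25 in shEV R1881 alone (69.9%). SVA_D had 73 and 50 regions (59.3%) in the shFoxA1 pair and 29 and 16 (64.4%) in the shEV pair. L1M2, with a median GC content of 33.2%, had 56 and 28 regions (66.7%) in the shFoxA1 pair, but 15 and 21 (41.7%) in the shEV pair. At the other end stood the old elements L2b (22.1%), L2c (27.2%) and MIR (29.4%), and the SINE AluJr (29.4%). In shEV their shares were 44.0%, 23.1%, 38.5% and 44.4%, and L2c alone of the 4 had an interval below the overall share there (12.6 to 38.3). L1PA2 to L1PA8 had an EtOH share of 39.5% (37.9 to 41.2) in shFoxA1 and 52.4% (50 to 54.7) in shEV, on opposite sides of the overall shares.

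**Figure D3:**
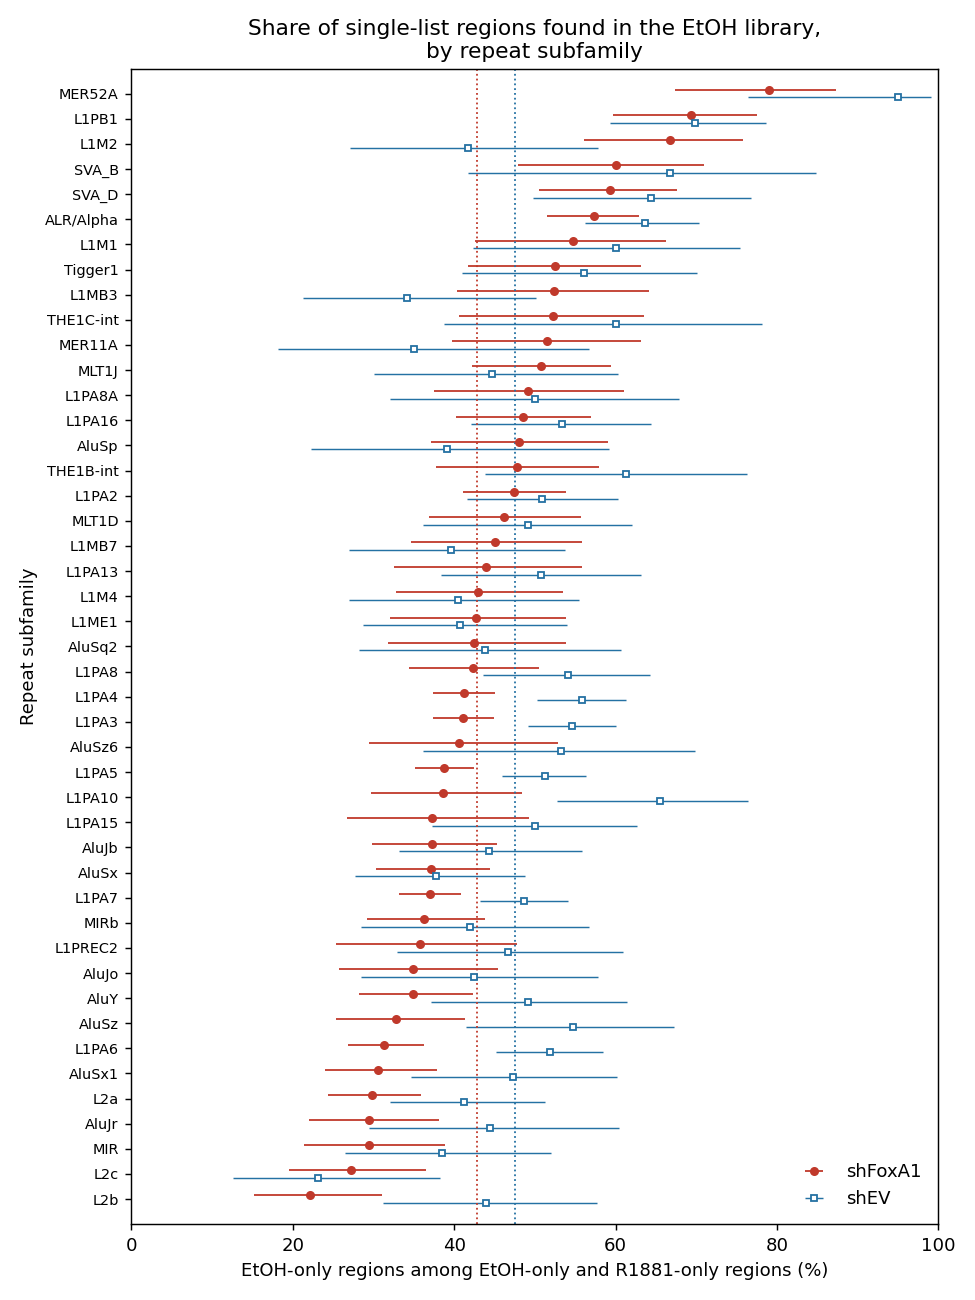
EtOH-only regions as a share of EtOH-only plus R1881-only regions (horizontal axis, %) for 45 repeat subfamilies (vertical axis), with shFoxA1 as filled circles and shEV as open squares; bars are Wilson 95% intervals and dotted lines the overall shares. MER52A stands highest, at 79.0% in shFoxA1 and 95% in shEV, and L2b lowest in shFoxA1 at 22.1%.

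Within 50 kb of a gene's transcription start site (TSS), the shFoxA1 EtOH-only regions reached 3514 of 20033 coding genes (17.5%); 851 genes (4.25%) had one in the promoter class. For 1947 of the 3514 genes the library also had a peak shared with another list within that distance, and 1118 also had a region found in all 4 lists. For 862 genes no mTOR region of any list other than shFoxA1 EtOH-only regions lay within that distance. A shFoxA1 R1881-only region was near 1214 of the 3514 genes (34.5%), against 22.4% of all coding genes. The shares of all coding genes that match the other counts are not given here. Most of the 3514 genes (2965) had 1 shFoxA1 EtOH-only region, 447 had 2 and 102 had 3 or more. The last were long genes, with a median length of 100903 bp, against 24130 bp for all coding genes.

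NFIB, a nuclear factor I transcription factor, PTPRF, a receptor tyrosine phosphatase, VIPR2, the receptor for vasoactive intestinal peptide, and TTC6 had the most regions, 6 each. KANSL1, a scaffold of a histone acetyltransferase complex, and PRKD1, protein kinase D, had 5 each. TTC6 lies beside FOXA1, the gene of the depleted factor. FOXA1 itself had no shFoxA1 EtOH-only region assigned to it: its 5 peaks in shFoxA1 EtOH were all shared, and the other lists held 5 (shFoxA1 R1881), 3 (shEV EtOH) and 3 (shEV R1881). Of the TTC6 regions, 4 lay within 50 kb of the FOXA1 start, at 5234, 6055, 16308 and 46063 bp from it, with scores of 27, 113, 42 and 103. Counted in windows of 1 Mb, the regions were spread over 2506 windows with a median of 3. The window with most, 29 regions, began at 10 Mb on chromosome 21 beside TPTE and BAGE, where 181 union regions of all kinds lay.

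The highest score of all (322) was that of a region on chromosome 7 at 158151172 to 158151564, in an intron and 296783 bp from the start of the gene assigned to it, LOC100506585. It was followed by an alpha satellite on chromosome 13 (score 309) and an AluSx1 element in an intron of ITSN1, an endocytic scaffold (score 223). Among regions within 50 kb of the TSS of a coding gene, the highest score (211) was in an intron of ACSBG2, an acyl-CoA synthetase, on chromosome 19 at 6165976 to 6166500. It was followed by an L1 element 16478 bp upstream of MYLK, the myosin light chain kinase (score 200), and an L1 element in an intron of NUP54, a nuclear pore protein (score 200). The region in exon 1 of ISM1, a secreted protein, had a score of 188 and a GC content of 73.5%, and no peak of another list lay within 154955 bp of it. A region 47066 bp upstream of ZNG1B, a GTPase of the zinc chaperone family, also scored 188. FANCC, a Fanconi anaemia protein, and TWSG1, a binding partner of bone morphogenetic proteins, each had an intronic L1 element with a score of 166. OGDHL, a relative of the oxoglutarate dehydrogenase, had an intergenic L1 element with a score of 155. Intronic regions of ATXN7L1 and DYNLT5, a dynein light chain, scored 144. Of these 10 regions outside the promoter class, 5 were annotated to L1 elements, beside 31.1% of all shFoxA1 EtOH-only regions.

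In the promoter class, the highest scores were at KLHDC10, a kelch protein that recruits substrates for a ubiquitin ligase, and PTPN4 (155 each). The KLHDC10 region lay on chromosome 7 at 130070109 to 130070572, and 18651 bp separated it from the nearest peak of another list. SYT7, a calcium sensor of vesicle fusion, followed with 144, then HAUS8 and TM9SF3, a membrane protein of the transmembrane 9 family, with 134. BCR, a GTPase-activating protein, CCDC14, KAT7 and TCTN3, a protein of the ciliary transition zone, scored 123, and DNPEP, an aminopeptidase, scored 113. The HAUS8 region at 17075194 to 17075752 on chromosome 19 spanned the start site, with no other peak within 16020 bp. At BCR the nearest peak of another list was 472 bp away, so neighbouring sequence of the same promoter region was called elsewhere.

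Of the 59 genes of the mTOR pathway list, 16 had a shFoxA1 EtOH-only region (27.1%, 17.4 to 39.6), beside 17.5% of all coding genes. In the promoter class 6 had one, beside 4.25% of all coding genes. The list also exceeded all coding genes in shFoxA1 R1881-only regions (18 of 59, against 22.4%). The same held for shFoxA1 EtOH peaks of any kind (40 of 59, against 49.1%). The median length of these genes was 50436 bp, against 24130 bp for all coding genes. RICTOR had 2 of its 3 shFoxA1 EtOH peaks in this set, and it had 2 peaks in shFoxA1 R1881, 1 in shEV EtOH and none in shEV R1881. Its larger region was 1698 bp wide, lay on chromosome 5 at 39073159 to 39074856 in a CpG island over the RICTOR start, and scored 103; the nearest peak of another list was 33855 bp away. EIF4E, the cap-binding protein released when mTOR complex 1 phosphorylates its inhibitors, had a promoter region with a score of 58. GRB10, an adaptor that mTOR complex 1 phosphorylates, had an intronic region with a score of 49. RPTOR had a promoter region with a score of 42 and an intronic region with a score of 21, which were 2 of its 4 shFoxA1 EtOH peaks. The other lists held 1 (shFoxA1 R1881), 2 (shEV EtOH) and 2 (shEV R1881) RPTOR peaks. PIK3R1, the regulatory subunit of PI3 kinase, CASTOR2 and NPRL3, of the amino acid sensing branch, also had promoter regions, with scores of 42, 42 and 34. In the same order, the nearest peak of another list was 4103, 28558 and 140 bp away. MTOR itself had no peak in shFoxA1 EtOH, 1 in shFoxA1 R1881, none in shEV EtOH and 1 in shEV R1881.

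Ribosomal protein genes had a shFoxA1 EtOH-only region in 23 of 86 cases (26.7%, 18.5 to 36.9), beside 17.5% of all coding genes. In the promoter class 13 (15.1%) had one, beside 4.25% of all coding genes. Of the 86 genes, 11 had a shFoxA1 R1881-only region, against 22.4% of all coding genes, and 55 a shFoxA1 EtOH peak of any kind, against 49.1%. The ribosomal protein genes are short, with a median length of 5046 bp. RPL29 led with a promoter region on chromosome 3 at 51995606 to 51996053 (score 113), followed by RPS16 on chromosome 19 at 39435704 to 39436192 (score 103) and RPL7L1 (score 66). RPL37 (score 58), RPL19 (42), RPS9 (42), RPL10 (34), RPL23 (34) and RPS19 (27) also had promoter regions. The RPS13 promoter region (score 15) lay 35 bp from a peak of another list. The region assigned to RPL21 lay on another chromosome than the RefSeq gene, the sole such case among 361 regions of listed genes. Mitochondrial ribosomal proteins had a region in 14 of 77 genes (18.2%), 6 of them in the promoter class. The tRNA synthetases had 3 of 20, the proteasome 5 of 31 (promoter regions at PSMA7, PSMA6 and PSMC1) and the spliceosome 7 of 37, with the highest score, 58, at both PRPF8 and SF3A3. The nearest peak of another list was 337 bp away at PSMA6 and 190 bp at PRPF8. It was 21623 bp away at PSMA7, 16258 bp at PSMC1 and 16870 bp at SF3A3.

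Nuclear receptor genes had the highest share of the 23 lists: 18 of 34 (52.9%, 36.7 to 68.5), beside 17.5% of all coding genes. In the promoter class 5 had one, beside 4.25% of all coding genes. They also exceeded all coding genes in shFoxA1 R1881-only regions (13 of 34, against 22.4%). The same held for shFoxA1 EtOH peaks of any kind (26 of 34, against 49.1%). The median length of the nuclear receptor genes was 74539 bp. RXRA, the common partner of many nuclear receptors, had a region with a score of 134 on chromosome 9 at 134367567 to 134368486, and 732 bp separated it from the nearest peak of another list. PGR, the progesterone receptor, had 4 regions, with scores of 123, 27, 21 and 21. NR1D2, a circadian repressor, had a promoter region with a score of 94, and NR3C2, the mineralocorticoid receptor, an intronic CpG island region with a score of 94. They lay 12029 and 791 bp from the nearest peak of another list. VDR, the vitamin D receptor, had an intronic region with a score of 75 and ESR1, the oestrogen receptor, one with a score of 66.

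Of 16 genes that androgen is known to repress, 7 had a shFoxA1 EtOH-only region (43.8%, 23.1 to 66.8) and 1 had a shFoxA1 R1881-only region, against 17.5% and 22.4% of all coding genes. These are long genes, with a median length of 109149 bp, and within 10 kb of the TSS 4 of the 16 had a shFoxA1 EtOH-only region, against 10.8% of all coding genes. Peaks of any kind in the shFoxA1 EtOH list were near 11 of the 16, against 49.1% of all coding genes. Among the 7 were BCHE, CCN3, DDC, OPRK1, ST7 and UGT2B15. UGT2B15, the enzyme that glucuronidates androgens, had 3 regions, with scores of 42, 42 and 21, all in L1PA elements. DDC, the aromatic amino acid decarboxylase, had 2 regions in L1PA4 elements, with scores of 58 and 42, and the regions of OPRK1, the kappa opioid receptor, were in L1 elements too (scores 66 and 34). CCN3, a secreted matricellular protein, was the 1 gene of this list with a promoter region (score 42). Of 37 androgen-induced genes, 26 had a shFoxA1 EtOH peak of any kind and 23 a shFoxA1 R1881-only region. A shFoxA1 EtOH-only region was near 12 of them (32.4%, 19.6 to 48.5). SORD, sorbitol dehydrogenase, had the highest score (84), in an LTR28 element of its intron 1, followed by FKBP5, a co-chaperone of steroid receptors, and TPD52 (58 each). KLK3, which encodes prostate-specific antigen, had a region 7774 bp upstream in an Alu element (score 42), and TMPRSS2, a luminal serine protease, one in intron 1 (score 42). Of these 12 genes, STEAP2 alone had a promoter region.

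Among 24 luminal transcription factors, 6 had a region (25%, beside 17.5% of all coding genes), none in the promoter class. More of the 24, 17, had a shFoxA1 R1881-only region, against 22.4% of all coding genes. Peaks of any kind in the shFoxA1 EtOH list were near 19, against 49.1%. Among the 6 with a shFoxA1 EtOH-only region were ELF3, GATA2, HOXB13, ONECUT2 and POU2F1. GATA2, a zinc finger factor, had one in an L1 element 7208 bp upstream (score 58), and HOXB13, the prostate homeobox factor, had 3 intergenic upstream regions with scores of 34, 34 and 27. The HOXB13 regions lay 338, 1041 and 95 bp from the nearest peak of another list, and the GATA2 region 2171 bp. Forkhead genes had a region in 5 of 51 cases (9.80%, 4.26 to 21.0), and HOX genes in 8 of 39 (20.5%). Of the forkhead genes, 18 had a shFoxA1 R1881-only region and 28 a shFoxA1 EtOH peak of any kind. Of the HOX genes, 6 and 16 had them.

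Chromatin modifier genes had a region in 22 of 64 cases (34.4%), 9 of them in the promoter class, beside 17.5% and 4.25% of all coding genes. A shFoxA1 R1881-only region was near 16 of the 64, against 22.4% of all coding genes. A shFoxA1 EtOH peak of any kind was near 48, against 49.1%. KAT7 (score 123), KDM4B, a histone demethylase (94), and KMT2C, an enhancer histone methyltransferase (84), had the highest scores. EED, a subunit of the Polycomb complex 2, had a promoter region with a score of 66, ARID2 and DNMT3A had promoter regions with scores of 49 and 42, and BRD2 one with a score of 34. From these promoter regions the nearest peak of another list was 701 bp away at ARID2 and 267 bp at BRD2. It was 45863 bp away at EED and 30612 bp at DNMT3A. Genes with a ZNF symbol, most of them zinc finger factors, had a region in 103 of 509 cases (20.2%). The median length of the chromatin modifiers was 72974 bp. The part of gene length in these list shares was not tested.

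ATF4 and stress genes had a region in 9 of 26 cases (34.6%), beside 17.5% of all coding genes. A shFoxA1 R1881-only region was near 10 of the 26, against 22.4% of all coding genes. A shFoxA1 EtOH peak of any kind was near 23, against 49.1%. PSAT1, an enzyme of serine synthesis, had an intronic region with a score of 94 and ATF3, a stress-induced transcription factor, one with a score of 66 at 632 bp from its start. This PSAT1 region lay 14596 bp from the nearest peak of another list, and the ATF3 region 273 bp. The enzymes of one-carbon metabolism MTHFD2 (score 34), SHMT2 (42) and MTHFD1 (27) had promoter regions, and SHMT1 had one in a CpG island of its intron 1 (34). Glycolysis genes had 5 of 26 (19.2%), with promoter regions at ALDOA (49) and LDHA (42), which lay 9418 and 525 bp from the nearest peak of another list. The TCA cycle and respiration list had 7 of 45 (15.6%), led by SUCLA2 (84), a succinyl-CoA ligase subunit. Lipid and sterol genes had 7 of 37 (18.9%), among them ACACA, the acetyl-CoA carboxylase, with a promoter region (75). Cell cycle genes had 8 of 41 (19.5%), among them CDKN1B, the inhibitor p27, in exon 1 (58), and PLK1, a mitotic kinase, in its promoter (58). The nearest peak of another list was 415 bp from the CDKN1B region and 37173 bp from the PLK1 region.

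The lists for other cell states were near or below the share of all coding genes. Neuroendocrine markers had a region in 4 of 22 cases (18.2%), led by INSM1 (58). Basal and mesenchymal markers had 4 of 26 (15.4%), led by SNAI2 (75). Genes of unrelated tissues had 4 of 34 (11.8%), led by PRSS1 and TNNT2 (49 each). Clustered histone genes had 2 of 70 (2.86%), both in the promoter class. The plot of gene lists sets these shares beside the shares of all coding genes.

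**Figure D4:**
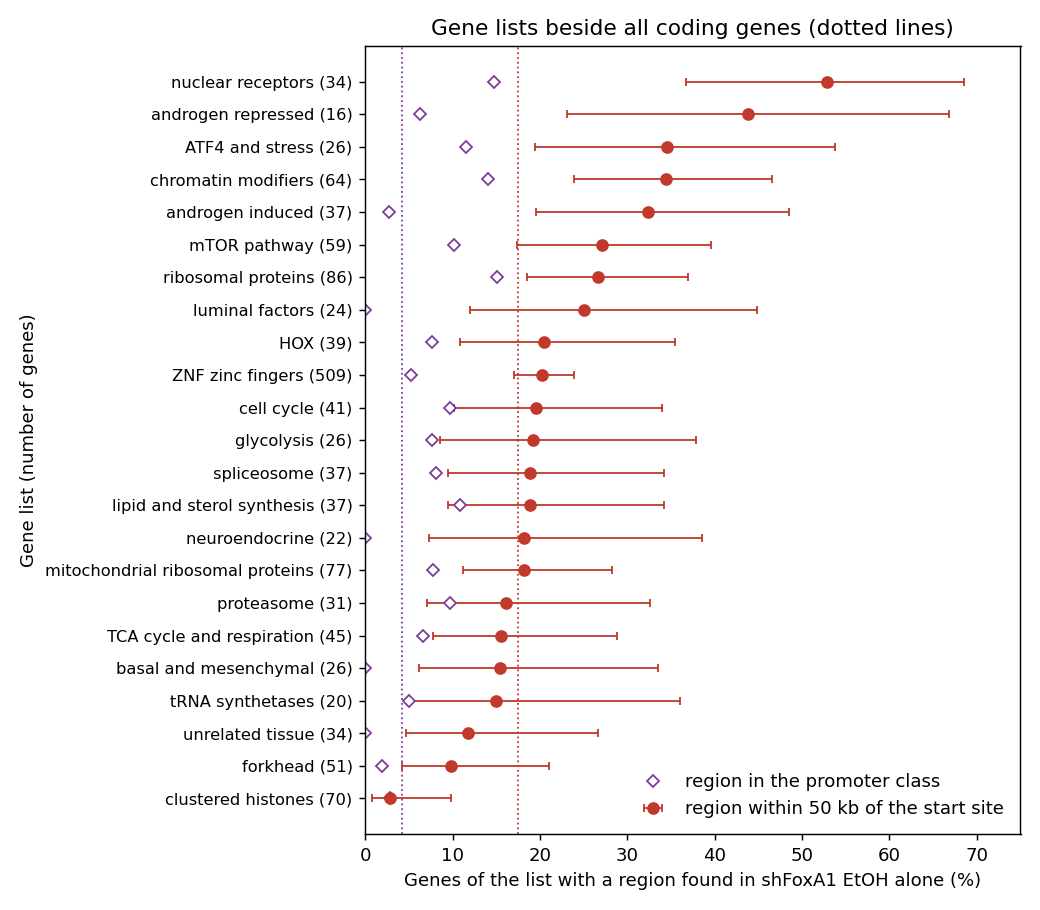
Share of genes (horizontal axis, %) with a region found in shFoxA1 EtOH alone within 50 kb of the TSS (circles, with Wilson 95% intervals) or in the promoter class (diamonds), for 23 gene lists (vertical axis, with the number of genes); dotted lines are the shares of all coding genes, 17.5% and 4.25%. Nuclear receptors stand highest at 52.9%, and ribosomal proteins have the highest promoter share at 15.1%.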

How the data were processed

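The 4 mTOR peak lists of LNCaP cells were used, without the 4 input libraries. The submitters' processing notes name build hg38 and the tools HOMER 4.11.1, MACS2, BWA 0.7.12, deepTools 3.5.0, Trimmomatic 0.36 and Picard 2.0.1. Parameters, peak threshold and control are not given in those notes. Each peak name carries 1 library, so calling was per library. The deposited score per peak is the authors' value and was used only within its own list. The deposited fraction of GC bases is printed as a percent. The annotation, nearest gene and distance are other deposited columns, taken as given; coordinates are counted from 1.

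Regions were merged in Python 3.11.15 with pandas 2.3.3, checked with bedtools 2.31.1 and tested on simulated data. Genes and promoter windows come from RefSeq (GRCh38.p14, the same assembly as hg38), and a region belongs to the gene named in the list within 50 kb. Named were the 12 highest-scoring regions with a coding gene, the 10 highest in promoters, the top 3 genes of each list, the 6 genes with most regions, and FOXA1 and MTOR; further list genes were added after their values were seen. Some genes that this rule names are not reported here. The regions and lists were chosen with earlier results of these data known.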

Additional observations from a re-analysis of the deposited data

Results flagged for a closer look

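Of 31 annotation classes and GC bins with at least 100 regions in each pair, 3 had an EtOH share of regions found in 1 list that lay below the overall share in shFoxA1 and above it in shEV, with both intervals clear of it. L1PA elements had an EtOH share of 40.3% in shFoxA1 (1581 and 2338 regions) and 53.0% in shEV (1092 and 970). Within them, L1PA2 to L1PA8 had 39.5% and 52.4%. Regions with a GC content from 50 to 55% had 38.8% in shFoxA1 (37.0 to 40.7) and 51.5% in shEV (47.6 to 55.3). This shEV interval barely cleared the overall shEV share of 47.5%, which has its own interval of 46.4 to 48.5. The difference between shFoxA1 and shEV was not tested, since each pair has 1 library per group.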

How the results depend on the processing

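Of 84 alternative values, 36 stayed within counting error or 1.5 times the count, 45 moved and 3 reversed. Some of the 36 could not have changed, so this count does not measure stability. Peaks left unmerged returned the main values, since each region holds 1 peak. The NRF1, cyclic AMP response element, E-box and AP-1 strings read the same on both strands, so the given strand alone returned the same shares. Keeping peaks at or above their list's median score in all lists gave 3677 regions, of which 14.1% were in promoters and 62.6% in repeats, with a median GC of 45.2%. The promoter share then differed by 4.01 points from shFoxA1 R1881-only regions, 8.59 from shEV EtOH-only and 3.20 (reversed) from shared peaks, and 7.96% of coding genes had a region. Kept to the 10000 peaks of highest score per list, these values were 1574 regions, 15.4%, 62.7%, 46.5%, 4.97, 9.80, 5.77 (reversed) and 3.80%. With the other lists whole and the region's own score at or above the median, 1457 regions were left, with 8.65% in promoters, 71.0% in repeats, a median GC of 42.6%, a repeat share 7.56 points above shFoxA1 R1881-only regions, a promoter share -3.17 points from shared peaks, 2.81% of coding genes and 43 listed genes in place of 291. Without repeats, 4186 regions were left, with 24.3% in promoters, a median GC of 55.7%, promoter differences of 7.07, 12.3 and -14.8 points and 11.8% of coding genes. Requiring no other peak within 1 kb gave 10.3% promoters, 61.1% repeats, 45.1% GC, -2.85 points from shared peaks and 14.9% of genes. Counting peaks that share under 50% of their width gave 12.8%, 56.3%, 46.3%, 0.239 points (reversed) and 21.0%. Gene windows of 10 kb and 100 kb gave 10.8% and 19.9% of genes. On the given strand alone, forkhead strings were in 2.07% of windows. The cause of these changes was not tested. No paired analysis was possible because each group has 1 library, and no replicate could be left out. Depth is unknown, so the number of regions in 1 list cannot be told apart from the depth of the libraries.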

Other observations

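The shFoxA1 EtOH-only regions overlapped 13 of 1560 microRNA hairpins (0.833%, 0.488 to 1.42). The shFoxA1 R1881-only regions overlapped 10, the shEV EtOH-only regions 1 and the shEV R1881-only regions 2, from sets of 12017, 3994 and 4418 regions. The highest scores were at MIR422A on chromosome 15 (134), MIR3615 on chromosome 17 (123) and MIR6125 on chromosome 12 (75), and MIR218-2, a microRNA in an intron of SLIT3, had a region with a score of 49. On sequences other than chromosomes 1 to 22, X and Y, 76 of 783 union regions were found in shFoxA1 EtOH alone, 78 in shFoxA1 R1881 alone, 83 in shEV EtOH alone and 61 in shEV R1881 alone.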
